A study of Rattus norvegicus with 8 samples.

Results

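Insig1, Insig2, Srebf1, Hmgcs1, Sqle, Fdft1, Sc5d and Cyp51 are 8 genes of sterol sensing and cholesterol synthesis. Their probe sets (the oligonucleotide groups with which an array reads a transcript) were taken by gene symbol from the annotation of the array. Of the 8 genes, 7 were found, with 11 probe sets, out of 10411 genes named on the array. Hmgcs1 had no probe set under its symbol in the annotation used, and its expression was not analysed here. Srebf1, Fdft1, Sc5d and Cyp51 had 2 probe sets each, and Insig1, Insig2 and Sqle had 1 each. No probe set of these genes carried a second gene symbol.

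The samples were primary hepatocytes, the parenchymal cells of the liver, isolated from 4 rats and kept on collagen, overnight without albumin before treatment. From each rat, 1 culture received cadmium chloride at 4 µM for 3 h and 1 received medium alone, so both groups (n = 4 each) hold the same animals. Strain, sex and age of the rats are not stated in the labels. Per its title, the study asked how hepatocytes in culture respond to little cadmium given briefly. Each RNA sample was hybridized to 1 Affymetrix RAE230A array, and the values are linear signals (intensities) made by the authors with MAS5, per the submitters' processing notes.

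Cells sense sterols in the membrane of the endoplasmic reticulum. The transcription factor precursors SREBP1 (encoded by Srebf1) and SREBP2 are carried to the Golgi by the escort protein SCAP and are cut there to release an active factor. INSIG1 and INSIG2 hold SCAP back when sterols are plentiful, and they also help to send HMG-CoA reductase to degradation. Insig1 is itself a target gene of SREBPs. SREBP2 mainly drives the enzymes of cholesterol synthesis, and SREBP1c mainly drives those of fatty acid synthesis in liver. Hmgcs1 and the genes Fdft1, Sqle, Cyp51 and Sc5d encode enzymes of the route from acetyl units to cholesterol, in that order.

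Differences below are on the log2(signal + 1) scale, cadmium minus control, from limma fitted to the 9519 probe sets left after the dimmest 40% were removed. A change was called at a Benjamini-Hochberg adjusted p under 0.05 over all 9519 probe sets. All 11 probe sets of the sterol genes passed the filter, and their mean levels lay between the 59.8th and the 95.6th percentile of all probe sets. A second fit held the rat as a block, since both cultures of a number came from the same rat. Arrays have no read depth, and the number of arrays limits the precision.

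Of the libraries as a whole, the median signal was 192 to 197 in control arrays and 180 to 186 in cadmium arrays (exact two-sided permutation p = 0.0286, the smallest that 70 assignments of 8 arrays allow). The log2 ratio of 3′ to 5′ signal of the GAPDH control probe sets was 0.01 ± 0.06 in control and 0.07 ± 0.08 (SD, n = 4) in cadmium arrays (exact permutation p = 0.257), and that of beta-actin 0.59 ± 0.17 and 0.64 ± 0.09 (exact permutation p = 0.629). All control arrays were washed on 1 fluidics module and all cadmium arrays on another, per the file headers, so module and treatment cannot be told apart. Hepatocyte marker genes were bright (6 genes, summed signal 82204 to 96424 in control and 88771 to 100592 in cadmium arrays). The summed signal was 109 to 197 and 46.1 to 158 for 4 endothelial markers, and 103 to 160 and 103 to 137 for 3 leukocyte markers, all of them below the filter. Of 3 macrophage markers, Cd68 and Cd14 passed the filter and Clec4f did not (summed signal 2848 to 6414 and 2681 to 4947). Of 3 cholangiocyte markers only Epcam passed the filter, while Krt19 and Krt7 did not (1717 to 2704 and 1103 to 2591). Of 5 stellate and fibroblast markers, Reln, Acta2 and Col1a1 passed the filter and Des and Lrat did not (1428 to 2237 and 1014 to 1581). Reln had a log2 change of -1.09 (limma adjusted p = 0.0933 without and 0.00331 with the rat as a block), and its part in the results below was not tested. In RNA from whole cultures, fewer cells of a type and less RNA per cell cannot be told apart.

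Insig1 was the gene of this set that rose. The promoter stretches of Insig1 and Cyp51 are shown because these are the genes with a called probe set, in opposite directions. They are from RefSeq (GRCr8), 5′ to 3′ on the gene's strand, and end where the annotated extent of the gene begins. The Insig1 stretch is 207 bases at chr4:8057813-8058019 on the minus strand, and the Cyp51 stretch is 250 bases at chr4:30991443-30991692 on the plus strand. Capitals mark matches, on either strand, to CCAAT (the NF-Y motif) or GGGCGG (an Sp1 motif).
Insig1: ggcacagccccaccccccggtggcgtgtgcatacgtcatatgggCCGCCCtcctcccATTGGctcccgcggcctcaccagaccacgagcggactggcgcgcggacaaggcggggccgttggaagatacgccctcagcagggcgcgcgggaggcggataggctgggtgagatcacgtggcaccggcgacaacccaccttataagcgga
Cyp51: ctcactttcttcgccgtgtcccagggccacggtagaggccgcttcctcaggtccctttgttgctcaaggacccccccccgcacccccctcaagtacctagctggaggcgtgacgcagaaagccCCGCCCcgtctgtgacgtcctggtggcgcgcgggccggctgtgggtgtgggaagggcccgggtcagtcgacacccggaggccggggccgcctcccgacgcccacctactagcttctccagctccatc

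In the Insig1 promoter a CCAAT match on the opposite strand began at -193 from the start site, and a GGGCGG match on the opposite strand at -206. Positions are counted from the start site of the RefSeq window, and for Insig1 43 bases lie between the end of the stretch shown and that site. In the Cyp51 promoter a GGGCGG match on the opposite strand began at -127, a second match lay after the start and outside the stretch shown, and CCAAT was absent. Windows of 300 bases (250 before the start and 50 after) were available for 6 of the 8 genes, with 2 windows for Srebf1, and for Sqle and Fdft1 none was used. CCAAT was found in the windows of Insig1, Insig2, Hmgcs1 and Sc5d and in both of Srebf1, against 37.5% of 33469 RefSeq windows of the same length. GGGCGG was found in all of these but Insig2, and in Cyp51, against 33.1% of windows. No match to TCACNCCAC (a sterol response element core, in 1.12% of windows), TGACGTCA (a cyclic AMP response element, 1.83%) or GAANNTTC (heat shock element units, 8.59%) was found in the 7 windows. These motifs were searched on both strands, a match is a description of letters only, and none overlapped a match to another motif.

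Insig1 encodes the SREBP-regulated protein of the INSIG pair. Its signal in control cultures of rats 1 to 4 was 2105, 1671, 1716 and 985. In cadmium cultures of the same rats it was 4042, 4372, 4527 and 2410. Every cadmium culture lay above every control culture, and rat 4 was the lowest in both groups. The mean was 1619 ± 466 in control and 3838 ± 973 after cadmium (SD, n = 4). The log2 change was 1.25 ± 0.25 (SE; adjusted p = 0.0209 by limma), which is a 2.39-fold rise. By rat the log2 difference was 0.94, 1.39, 1.40 and 1.29. With the rat as a block the standard error was 0.10 and the adjusted p 0.000188. By size of rise it was gene 60 of 7099 tested genes, each read on its brightest probe set. Without the rat term the call ended when control replicate 2 or cadmium replicate 1, 2 or 3 was left out (adjusted p = 0.0576, 0.056, 0.0692 and 0.0541), or when rat 1, 2 or 3 was (adjusted p = 0.0565, 0.161 and 0.111). In the paired fit it held with any 1 rat left out (blocked adjusted p between 7.94e-05 and 0.00409). Within chip lot 1 (rats 3 and 4) the log2 change was 1.34 and not called (limma adjusted p = 0.4), and within lot 2 (rats 1 and 2) it was 1.16 and called (limma adjusted p = 0.0166), each with 2 rats.

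Insig2, which encodes the partner protein with the same SCAP-holding role, was not called. Its signal in rats 1 to 4 was 1353, 1305, 1002 and 1884 in control and 1411, 1181, 991 and 877 after cadmium. The groups overlapped, and rat 4 moved from the highest control value to the lowest cadmium value. Its log2 change of -0.30 ± 0.20 (SE) did not pass (limma adjusted p = 0.513), with a 95% interval from -0.74 to 0.14. By rat it was 0.06, -0.14, -0.02 and -1.10, so the mean rested on rat 4, and without that rat the log2 change was -0.03. The log2 change of Insig1 exceeded that of Insig2 in 4 of 4 rats, by 0.88, 1.53, 1.42 and 2.39 in rats 1 to 4 (mean 1.55 ± 0.63, SD). An exact two-sided sign-flip test gave p = 0.125, the smallest that 4 rats allow.

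**Figure D1:**
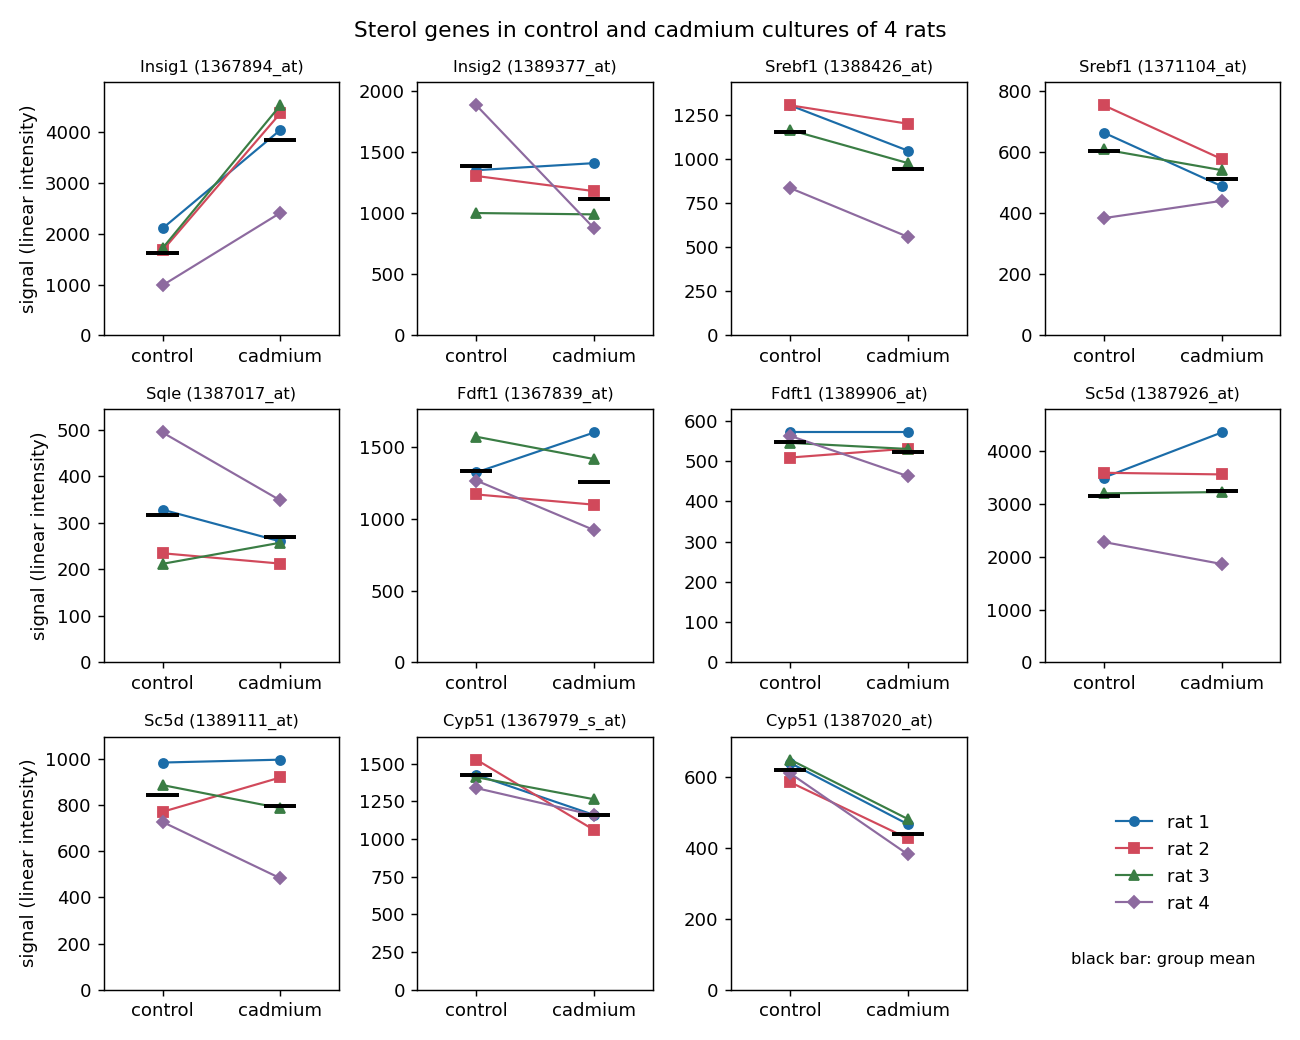
Signal (linear intensity, axes from 0) of the 11 probe sets in control and cadmium cultures, with 1 line per rat and black bars for group means (n = 4). Insig1 rose in all 4 rats, and both Cyp51 probe sets and the brighter Srebf1 probe set were lower in all 4 rats. The values of the groups overlap for every probe set but that of Insig1 and both of Cyp51.

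Srebf1 encodes the SREBP1 precursors. The brighter of its 2 probe sets read 1308, 1308, 1168 and 838 in control cultures of rats 1 to 4, and 1050, 1203, 979 and 560 after cadmium. It was lower in 4 of 4 rats, by 0.32, 0.12, 0.25 and 0.58 on the log2 scale, while the groups overlapped, and rat 4 was the lowest in both. Its log2 change of -0.32 ± 0.23 (SE) had a 95% interval from -0.83 to 0.19 (limma adjusted p = 0.565). The blocked standard error was 0.10 and the blocked adjusted p was 0.128. The dimmer probe set read 662, 752, 608 and 383 in control and 487, 576, 540 and 440 after cadmium, a log2 change of -0.20 ± 0.20 (adjusted p = 0.694). It was lower in 3 of 4 rats and higher in rat 4. Neither probe set was called in either fit, and the labels and annotation do not say which SREBP1 isoform each reads.

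Of the 4 synthesis enzymes measured, Fdft1, the squalene synthase gene that commits the route to sterols, read 1324, 1170, 1572 and 1267 in control and 1602, 1099, 1417 and 922 after cadmium on its brighter probe set. The groups overlapped, with a higher value in rat 1 and lower values in the other rats after cadmium. The log2 change was -0.11 ± 0.17 (limma adjusted p = 0.829; 95% interval -0.49 to 0.27), and the second probe set gave -0.07 ± 0.11 (adjusted p = 0.837; interval -0.31 to 0.18).

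Sqle encodes squalene epoxidase, a controlling step of sterol synthesis, and was the dimmest of these probe sets. It read 329, 235, 212 and 495 in control and 260, 213, 258 and 349 after cadmium in rats 1 to 4. Rat 4 was the highest in both groups, which overlapped. The log2 change was -0.18 ± 0.26 (limma adjusted p = 0.811), with an interval from -0.74 to 0.39.

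Cyp51 encodes the lanosterol demethylase, the cytochrome P450 of cholesterol synthesis. Its dimmer probe set read 638, 584, 648 and 609 in control and 466, 426, 480 and 381 after cadmium in rats 1 to 4. Every cadmium culture lay below every control culture. The mean fell from 620 ± 28.9 to 438 ± 44.7 (SD, n = 4), a log2 change of -0.50 ± 0.11 (limma adjusted p = 0.0362; blocked adjusted p = 0.0319). By rat the log2 difference was -0.45, -0.46, -0.43 and -0.68.

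The brighter Cyp51 probe set, which the annotation ties to the same transcript accession, read 1426, 1526, 1410 and 1338 in control and 1159, 1060, 1263 and 1157 after cadmium. Its groups did not overlap either, and it was lower in 4 of 4 rats, by 0.30, 0.53, 0.16 and 0.21 on the log2 scale. The log2 change was -0.30 ± 0.10 (95% interval -0.51 to -0.08), which did not pass (limma adjusted p = 0.146; blocked adjusted p = 0.124). The call of the dimmer probe set was not firm. It ended when any array but cadmium replicate 3 was left out (adjusted p up to 0.111, without control replicate 3), without the filter (0.0511), after quantile normalization (0.0626) and after median centring (0.0826), as well as within each chip lot (0.532 and 0.313). With the rat as a block it ended when rat 1, 2 or 3 was left out (adjusted p = 0.105, 0.113 and 0.116). The log2 change stayed between -0.55 and -0.43 in these and all other alternatives tried for that probe set. With the mean of both probe sets the gene passed (log2 change -0.40; limma adjusted p = 0.0487).

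Sc5d encodes the desaturase near the end of the route, which acts on lathosterol. Its brighter probe set read 3500, 3591, 3201 and 2280 in control and 4354, 3560, 3226 and 1865 after cadmium. The means were nearly equal and the groups overlapped (log2 change 0.0058 ± 0.24; limma adjusted p = 0.996). The 95% interval, from -0.52 to 0.53, leaves room for a change of that size either way, and with the rat as a block it narrowed to -0.23 to 0.24. The second probe set gave -0.12 ± 0.21 (adjusted p = 0.842).

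In all, 1 of the 11 probe sets was called higher, against 2.1% of all tested probe sets, and 1 was called lower, against 1.43%. With the replicate block the counts were again 1 and 1, against 2.86% and 2.29%. Of the 11, 1 had every cadmium array above every control array (4.33% of all tested probe sets) and 2 had every cadmium array below (7.22%). Of the 11, 1 was higher in 4 of 4 rats (9.91% of all tested probe sets) and 3 were lower in 4 of 4 (19.7%). The mean was lower after cadmium for 9 of the 11, and the median log2 change was -0.18, against -0.06 over all tested probe sets, of which 61.4% were below 0. The log2 change of Insig1 was above that of each of the other 6 genes in 4 of 4 rats, with mean gaps from 1.25 (Sc5d) to 1.57 (Srebf1). Each of these 6 comparisons had an exact sign-flip p of 0.125, the smallest that 4 rats allow, and 0.125 after Benjamini-Hochberg adjustment. Insig1 was taken as the comparator with its rise known, and the 6 comparisons share its values. They are thus a description and add no support to the rise.

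**Figure D2:**
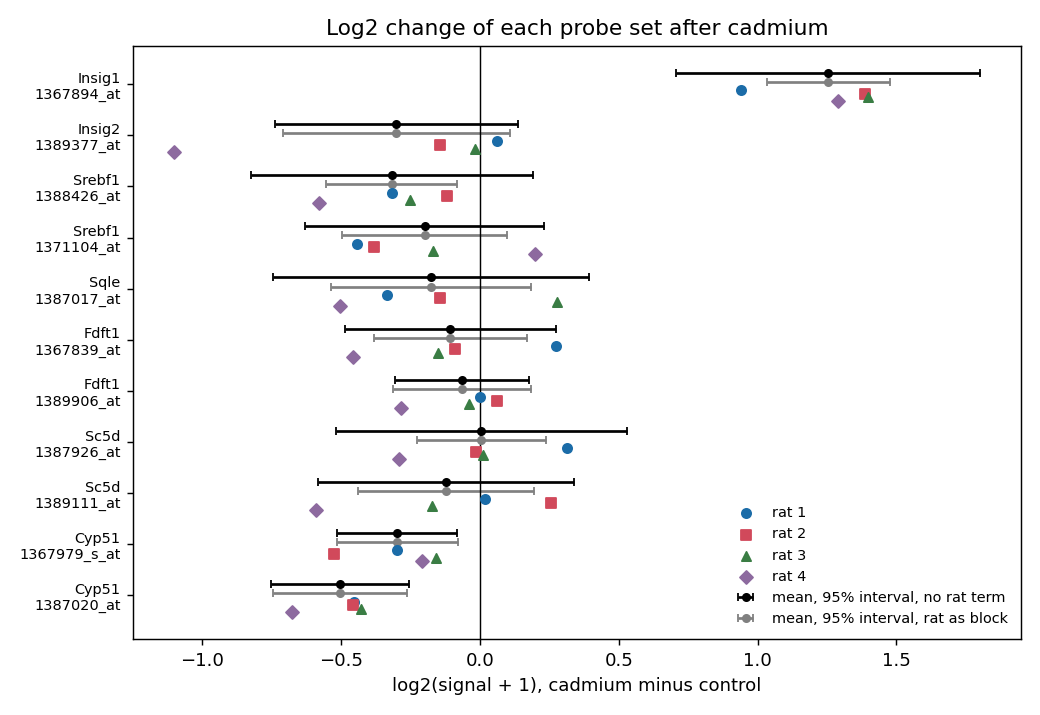
Log2 change (cadmium minus control, log2(signal + 1)) of the 11 probe sets, with coloured symbols for single rats, black points with 95% intervals from the fit without a rat term, and grey points with intervals from the fit with the rat as a block. The interval of Insig1 lies above 0 and those of both Cyp51 probe sets lie below 0 in either fit, before adjustment over all probe sets, while that of the brighter Srebf1 probe set excludes 0 only with the block.

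The level of these genes was also compared between the 4 animals. A moderated F test of the rat with cadmium as a term called 2 of the 11 probe sets, against 1.75% of all tested probe sets. They were Insig1 (adjusted p = 0.028) and the brighter Sc5d probe set (adjusted p = 0.0433), and the brighter Srebf1 probe set came next (adjusted p = 0.0545). Averaged over its 2 cultures, rat 4 lay below the group means by 0.65 for Insig1, 0.59 for Sc5d and 0.57 for Srebf1 on the log2 scale. Rat 4 was the lowest animal for 9 of the 11 probe sets, in which Srebf1, Fdft1, Sc5d and Cyp51 count with 2 each. The span between animals was as small as 0.10 for the brighter Cyp51 probe set. How often rat 4 was lowest over all tested probe sets was not determined. The count is thus not shown to be particular to these genes. Sqle ran the other way, with rat 4 above the group mean by 0.56 (adjusted p = 0.19), and Cyp51 differed little between animals (adjusted p = 0.949 and 0.732). Without rat 4 the adjusted p of the rat term was 0.841 for Insig1 and 0.311 for Sc5d, and the F statistic of Insig1 went from 19.7 to 0.41. The call of Insig1 also ended without rat 2 or 3 (adjusted p = 0.055 and 0.0672), and that of Sc5d without rat 1, 2 or 3 (adjusted p = 0.0624, 0.106 and 0.0755). Both ended without the filter (0.0633 and 0.0899) and without a variance trend (0.175 and 0.203). Both arrays of a rat were scanned on the same day, per the file headers, so animal and scan day cannot be told apart. Chip lot 1 held the arrays of rats 3 and 4 and lot 2 those of rats 1 and 2. Differences between these pairs of rats thus cannot be told from the lot.

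**Figure D3:**
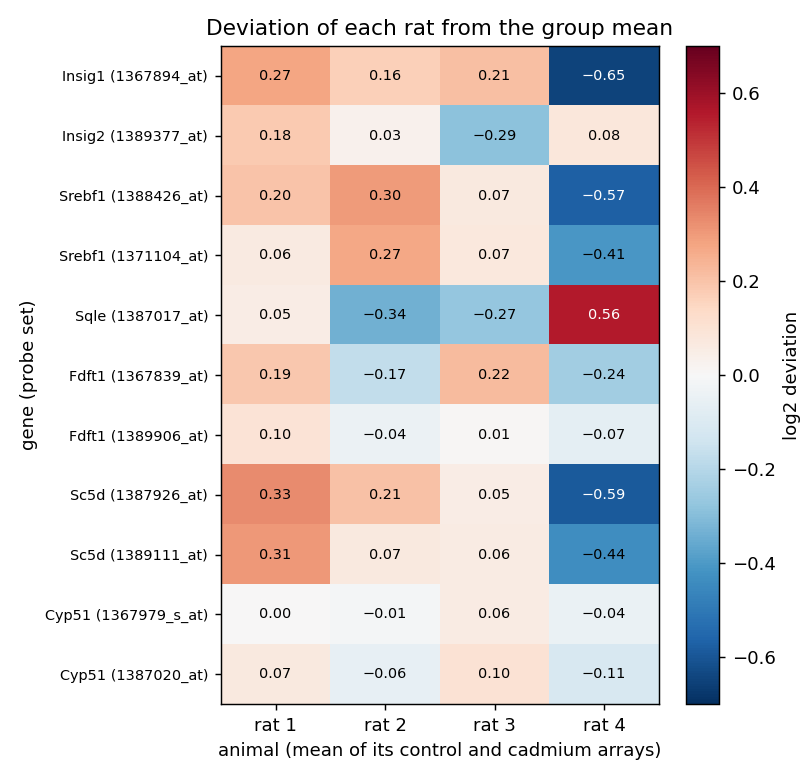
Deviation of each rat from the group means (log2, mean of its control and cadmium arrays) for the 11 probe sets, red above and blue below. Rat 4 is lowest for Insig1, Srebf1, Sc5d, Fdft1 and Cyp51 and highest for Sqle.

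The rest of the cholesterol pathway was described with 61 other genes in 5 lists, of which 47 had a probe set under their symbol alone and 37 passed the filter. None of the 37 was called without the rat term, higher or lower, by limma (against 2.04% and 1.31% of 7099 genes on their brightest probe set). At an unadjusted p under 0.05 there were 4, all lower (Lss, Scap, Fasn and the ubiquitin ligase gene Rnf139, the last named after its value was seen), against 5.94% of the 7099 genes higher and 10.3% lower at that threshold. With the replicate block none was called higher and 1 lower (against 2.73% and 2.21%). The median log2 change of the 37 was -0.08, and 29 of them were below 0. Over all tested probe sets the median was -0.06, and 61.4% were below 0. Array medians were also lower after cadmium. How many of the 37 stay below 0 after median centring was not determined.

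In the other synthesis genes, 13 were tested, with log2 changes from -0.51 to 0.08 and a median of -0.06. Fdps, the farnesyl diphosphate synthase gene just before Fdft1 in the route, had 3614 ± 477 in control and 3484 ± 600 after cadmium (SD, n = 4), a log2 change of -0.06 ± 0.14 (limma adjusted p = 0.888). Msmo1, a sterol methyl oxidase that acts after Cyp51, had -0.02 ± 0.20 (adjusted p = 0.976). Ebp, a sterol isomerase, had -0.13 ± 0.13 (adjusted p = 0.703). Lss, the lanosterol synthase gene whose product Cyp51 acts on, was the lowest of the list and is named after its values were seen. It read 284, 245, 319 and 295 in control and 217, 176, 221 and 189 after cadmium, with no overlap. Of all tested probe sets, 7.22% had every cadmium array below every control array. The log2 change of Lss, -0.51 ± 0.15, did not pass (limma adjusted p = 0.0955; blocked adjusted p = 0.0766).

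Of the other genes of sterol sensing and SREBP processing, 9 were tested, with a median of -0.16. Erlin1 and Erlin2, which encode endoplasmic reticulum proteins of the degradation of HMG-CoA reductase, had -0.15 ± 0.11 and -0.16 ± 0.20 (limma adjusted p = 0.578 and 0.757). Mbtps1, which encodes the Golgi protease that first cuts SREBPs, had -0.06 ± 0.15 (adjusted p = 0.89). Scap, the escort gene, is named after its values were seen. It read 611, 625, 614 and 663 in control and 491, 488, 498 and 453 after cadmium, again with no overlap. The log2 change of Scap, -0.38 ± 0.10, did not pass (limma adjusted p = 0.0674; blocked adjusted p = 0.0794). Rnf139 also had every cadmium array below every control array (-0.47 ± 0.17; limma adjusted p = 0.193). Nr1h2 of the same list went the other way on its brighter probe set, with every cadmium array above (0.13 ± 0.10; limma adjusted p = 0.568). Of all tested probe sets, 7.22% lay below and 4.33% above in this way. Srebf2, also named after its values were seen, had -0.21 ± 0.17 on its brighter probe set (adjusted p = 0.602).

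The uptake list had 2 tested genes, the lipoprotein receptors Lrp1 (log2 change -0.43 ± 0.20; limma adjusted p = 0.325) and Scarb1 (-0.20 ± 0.18; adjusted p = 0.675). In export, storage and bile acid synthesis 4 genes were tested and 7 lay below the filter. The bile acid enzyme gene Cyp27a1 had a log2 change of -0.02 ± 0.12, the lysosomal sterol carrier Npc2 -0.03 ± 0.12 and the lysosomal lipase Lipa -0.10 ± 0.10 (limma adjusted p = 0.967, 0.94 and 0.718).

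Among 9 tested fatty acid genes known as SREBP1c targets, Fasn, the fatty acid synthase gene, was called in the paired fit. Its brighter probe set read 796, 385, 493 and 488 in control and 442, 145, 191 and 238 after cadmium in rats 1 to 4. The groups overlapped, with rat 1 the highest in both, and each rat was lower, by 0.85, 1.40, 1.37 and 1.03 on the log2 scale. The log2 change was -1.16 ± 0.32 (limma adjusted p = 0.083), and with the replicate block its standard error was 0.14 (adjusted p = 0.002; 0.00173 to 0.0185 with 1 rat left out). A second Fasn probe set did not show this. It read 417, 290, 193 and 216 in control and 300, 217, 277 and 162 after cadmium, a log2 change of -0.20 ± 0.26 (adjusted p = 0.791; blocked adjusted p = 0.62), with a higher value in rat 3. The mean of the Fasn probe sets gave a log2 change of -0.68 (adjusted p = 0.215, without the block), which was not called.

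**Figure D4:**
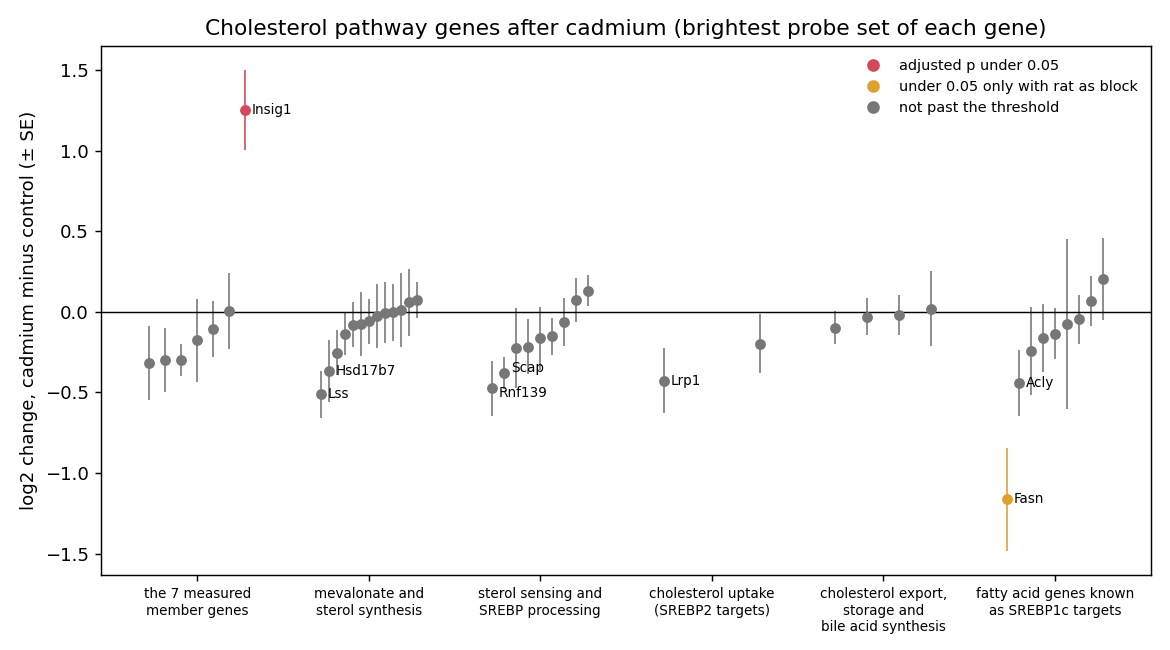
Log2 change (cadmium minus control, ± SE, n = 4 per group) of the 7 measured sterol genes and of 37 other genes by list, each on its brightest probe set. Insig1 stands at 1.25, Fasn at -1.16, and the other genes shown lie between -0.51 and 0.21.

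The 5 genes with the profile most like that of Insig1 over the 8 arrays were taken by the smallest root mean square difference of log2 values, each gene centred on its own mean, among tested genes on their brightest probe set. They were the chemokine genes Cxcl3 (0.20) and Cxcl2 (0.33), the adhesion gene Mpzl2 (0.32), the transcriptional inhibitor gene Id4 (0.33) and the adaptor gene Bcar3 (0.34). Cxcl3 read 1344, 1109, 970 and 723 in control and 3022, 2876, 2899 and 2252 after cadmium in rats 1 to 4. Rat 4 was lowest in both groups, as for Insig1. Such likeness follows from how the 5 genes were taken. None of the 5 is a sterol gene of the lists used here. The lists held only 37 of the 7099 tested genes, so this absence is no result about them.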

How the data were processed

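The authors deposited 1 table of linear signals (intensity) for 15923 probe sets on 8 arrays, made with MAS5, per the submitters' processing notes; these notes give no version, and the labels no scaling target and no detection calls. MAS5 treats each array alone, and its dim values are noisy. Array setting files were read only for batches. The 57 control probe sets were left out. Symbols came from the platform annotation, updated by gene number to RefSeq GRCr8 (12783 of 15866 probe sets with 1 symbol, 312 with several, 2771 with none here). Values entered as log2(signal + 1); the dimmest 40% by mean (signal under 118) were left out. The pseudocount understates changes of dim genes. No further normalization was applied. Two-sided tests used limma 3.58.1 under R 4.3.3 (lmFit, then eBayes with trend), checked on simulated data. Adjusted p values are over all tested probe sets. The brightest probe set stood for a gene.

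The sterol genes, lists and rules were chosen with earlier results of these data known. Named were all sterol genes, called list genes or otherwise the 3 brightest per list, and the 5 genes most like Insig1. The numbers pair the samples, since both cultures of a number came from the same rat, per the labels. Deviations from the group means correlated at 0.35, 0.251, 0.475 and 0.196 within rats 1 to 4, and at most at -0.00828 between rats. Part of this contrast is built in, since centring each group lowers the between-rat values when those within rats are positive. Both arrays of a rat also shared a chip lot. Alternatives were another pseudocount, filter, scaling, variance model, threshold, the rat or chip lot as a block, fits within lots, probe set means, and arrays or rats left out. The block with 1 rat left out was added after the data were seen. The sign-flip comparison of Insig1 with the other sterol genes was not in the plan of tests.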

Additional observations from a re-analysis of the deposited data

How the results depend on the processing

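The direction of Insig1 and of both Cyp51 probe sets held in every alternative tried. The replicate block changed no call among the sterol genes, and in the lists it added Fasn, so that 1 list gene was lower. The count of sterol probe sets called lower, 1 in the fit reported, was 0 without the filter, after quantile normalization, after median centring and within each chip lot, and the dimmer Cyp51 probe set then had log2 changes of -0.50, -0.46, -0.43, -0.55 (lot 1) and -0.45 (lot 2). Within lot 1 the count of higher ones was also 0, with Insig1 at 1.34. With each of 8 arrays or 4 rats left out in turn, both counts lay between 0 and 1, Insig1 between 1.03 and 1.46, and the dimmer Cyp51 probe set between -0.55 and -0.44. In the replicate block with 1 rat left out, added after the data were seen, Insig1 (1.21 to 1.36) was called in all 4 fits and that Cyp51 probe set (-0.52 without rats 1 and 2, -0.53 without rat 3, -0.45 without rat 4) in 1, the last. The mean of both Cyp51 probe sets was called (-0.40). List genes called lower numbered 1 with a 60% filter, which was not Fasn (limma adjusted p = 0.077 there). They numbered 3 at a threshold of 0.1 (Scap, Fasn and Lss), and 0 to 1 with an array or rat left out. Probe sets called for the rat term were 0 without the filter and 0 without a variance trend, 3 with a 60% filter and 3 at a threshold of 0.1 (both adding the brighter Srebf1 probe set), and 0 to 1 with a rat left out. The cause of these shifts was not tested. Calls within lots rest on 2 rats each. Directions of Fdft1, Sc5d, Sqle and the dimmer Srebf1 probe set, none of them called, changed in 1 to 9 alternatives. Called probe sets were higher in 59.5% of calls as reported, 69.8% after quantile normalization and 77.3% after median centring.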

Other observations

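Scd, the stearoyl-CoA desaturase gene and a known SREBP1c target, differed between animals and is named after its values were seen. It read 3303, 887, 1383 and 738 in control cultures of rats 1 to 4 and 3075, 777, 1512 and 673 after cadmium, so the order of the rats was the same in both groups. The rat term had an adjusted p of 0.000213 (limma moderated F), while the log2 change with cadmium was -0.08 ± 0.53 (limma adjusted p = 0.968; blocked adjusted p = 0.701). Rat 4 was the lowest animal for Scd, as it was for Insig1, Srebf1 and Sc5d. Other genes of the SREBP1c list did not all share this. On their brightest probe sets, Acss2 was lowest in rat 4 in both groups, while Fasn and Acaca were lowest in rat 2. Among 46 groups of 4 values (sterol probe sets and named list genes), none had a highest or lowest sample past Dixon's 95% critical value of 0.829.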
